A study of Mus musculus with 4 samples.

Results

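Insulin-like growth factors (IGFs) act on cells only when they are free of the binding proteins that hold them in the extracellular space. The metalloproteinase pregnancy-associated plasma protein A, encoded by Pappa, cleaves IGF binding protein 4 and also binding protein 5, and so releases the ligand near the type 1 IGF receptor. That receptor signals through the adaptor proteins IRS1 and IRS2 to PI3-kinase and AKT, and in bone the ligand made by osteoblasts and other cells supports both bone formation and the growth of osteoclasts, the multinucleated cells that resorb bone. The genes described here are Pappa, the ligand gene Igf1, the binding protein genes Igfbp4, Igfbp5 and Igfbp7, the receptor genes Igf1r and Igf2r, and the receptor substrates Irs1 and Irs2, which were taken by symbol from a table of 12799 genes. All 9 were found there and all 9 passed the filter on low values, 1 CPM or more in at least 2 libraries. Pappa was chosen because it was lower in the knockout libraries in this same comparison, so its difference is a description and supports nothing further. The other 8 were listed for their place in the pathway and for being present in the table.

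The libraries held poly(A) RNA of bone marrow-derived monocytes from female mice aged 12 weeks, grown for 3 days with M-CSF at 30 ng/mL and RANKL at 50 ng/mL, the cytokine pair that drives monocytes toward osteoclasts. Besides these 3 days, a marrow culture of 2 days is given for each library. Knockout cells carried Csf1r-iCre;Piezo1fl/fl, in which a recombinase under the Csf1r promoter deletes the stretch-gated channel gene Piezo1 in the monocyte lineage (n = 2 libraries). Control cells carried the same floxed alleles and no recombinase (Piezo1fl/fl, n = 2 libraries), so an effect of the Csf1r-iCre transgene cannot be told apart from that of Piezo1 loss. The labels give 1 batch value for all libraries and call them biological replicates, without saying how many mice each came from. Piezo1 itself measured 60.98 and 56.2 CPM in the knockout libraries, against 430 and 384 CPM in the control libraries. CPM (counts per 1e6 reads of a scaled library size) is the unit of every level below. Read totals were 14997205 and 18897927 in the knockout libraries and 15320308 and 14122118 in the control libraries, so that 1 read was worth 0.0544 to 0.0700 CPM. The 16 marker genes of macrophages and osteoclasts were all present. They summed to 64078 and 79351 CPM in the knockout libraries and 66383 and 63040 CPM in the control libraries. Their log2 fold changes, knockout over control, were positive for 14 and negative for 2, with a median of 0.13. In 2 of the 16 both knockout libraries were above both controls, against 16.5% of all tested genes. In 0 both were below, against 15.4%. Transcripts that mark other cells were also present. Of 30 markers of stromal cells, fibroblasts and osteoblasts, 27 were present, with a summed level of 2203 and 1910 CPM in the knockout libraries and 2920 and 3520 CPM in the control libraries.

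The 3 binding protein genes stood higher, nearly level and lower in the knockout libraries, and the 250 bases before the start of each are shown for that reason, from RefSeq on GRCm38.p6. The sequences run 5′ to 3′ on the strand of the gene, and capitals mark the letters of the core motif of TEAD, the DNA-binding partner of YAP and TAZ (co-activators that respond to mechanical load), GGAATG or its reverse complement CATTCC.
Igfbp4 (chr11:99040994-99041243, plus strand): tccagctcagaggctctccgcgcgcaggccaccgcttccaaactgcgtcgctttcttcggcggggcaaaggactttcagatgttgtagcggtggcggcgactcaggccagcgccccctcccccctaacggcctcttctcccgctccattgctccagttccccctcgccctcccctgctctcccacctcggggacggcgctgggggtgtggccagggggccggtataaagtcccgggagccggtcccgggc
Igfbp5 (chr1:72874866-72875115, minus strand): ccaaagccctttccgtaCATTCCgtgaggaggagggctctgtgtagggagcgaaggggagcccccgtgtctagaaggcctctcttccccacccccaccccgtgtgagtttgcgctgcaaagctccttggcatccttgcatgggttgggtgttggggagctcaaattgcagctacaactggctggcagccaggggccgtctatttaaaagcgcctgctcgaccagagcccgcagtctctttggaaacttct
Igfbp7 (chr5:77408046-77408295, minus strand): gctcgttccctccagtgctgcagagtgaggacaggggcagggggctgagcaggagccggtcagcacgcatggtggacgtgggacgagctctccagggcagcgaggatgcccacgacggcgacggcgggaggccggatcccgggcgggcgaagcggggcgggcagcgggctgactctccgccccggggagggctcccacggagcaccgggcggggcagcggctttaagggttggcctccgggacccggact

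The table of promoters held an entry for 8 of the 9 genes and none for Pappa, so the counts below do not cover Pappa. Igfbp7 and Igfbp4 had a GC content of 74.0% and 69.2% over these bases, with 26 and 22 CpG dinucleotides, whereas Igfbp5 had 58.8% and 10. The median of 32851 promoters was 52.4% with 6 CpG. The TEAD letters occurred on either strand in 12.6% of those promoters and in 2 of the 8, Igfbp5, with its first base at −233 from the start, and Irs1, at −201. The FOXO motif GTAAACA occurred in 3.17% of all promoters and in 0 of the 8. The AP-1 motif TGANTCA, which reads the same on both strands, occurred in 6.75% of all promoters and in 1 of the 8, Igf1, at −37. The letters there were TGAATCA, with A at the open position N. The Igf1 window, 87860861 to 87861110 on chromosome 10, lies inside the gene as GENCODE M21 annotates it, from 87858265 on the plus strand. These matches describe letters in a window and are not evidence of binding.

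Pappa was the member with the largest difference. It measured 7.19 CPM in knockout 1 and 7.23 CPM in knockout 2, against 19.2 CPM in control 1 and 21.4 CPM in control 2, from 109, 133, 295 and 306 reads. Both knockout libraries lay well below both controls, and the knockout libraries differed from each other by less than counting error. Exact Poisson intervals at 95%, which cover counting error only, ran between 5.91 and 8.68 CPM for knockout 1 and between 6.05 and 8.57 CPM for knockout 2. For control 1 they ran between 17.0 and 21.5 CPM and for control 2 between 19.1 and 23.96 CPM. The mean was 7.21 ± 0.03 CPM in knockout libraries and 20.3 ± 1.60 CPM in control libraries (SD, n = 2 each), so the knockout level was 35.5% of the control level. On the log2(CPM + 0.5) scale knockout minus control came to −1.43 (SE 0.15, 95% confidence interval −1.77 to −1.09), the 11th lowest of 11781 genes tested. Neither the interval nor the rank allows for the choice of Pappa on this same comparison. The gene (ENSMUSG00000028370.7) lies on chromosome 4, 65124174 to 65357509, plus strand, in GENCODE M21 on GRCm38, and no other annotated gene overlaps it.

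Among the ligands, Igf1 was the gene with a measured level. It stood at 50.1 and 27.7 CPM in the knockout libraries and at 43.97 and 31.6 CPM in the control libraries. The genotypes overlapped fully, and the higher library of each genotype exceeded the lower by 1.81-fold among knockouts and 1.39-fold among controls, beyond the counting intervals. The fitted log2 difference, knockout minus control, was 0.0009 with a 95% confidence interval of −0.63 to 0.63, so differences up to about that size in either direction were not excluded. The sign of this difference changed with the scaling. It was −0.02 with plain library sizes, which moved the median of all tested genes by about as much, to −0.02.

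The binding protein genes went 3 ways. Igfbp4, whose product is the best known substrate of PAPPA, measured 63.8 and 56.6 CPM in the knockout libraries, against 39.0 and 47.5 CPM in the control libraries. Both knockout libraries were above both controls, with means of 60.2 ± 5.07 CPM in knockout libraries and 43.3 ± 6.01 CPM in control libraries (SD, n = 2 each). Its log2 fold change of 0.48 (SE 0.13, 95% confidence interval 0.18 to 0.77) did not pass over all genes in limma with Benjamini-Hochberg adjustment (adjusted p = 0.535, unadjusted p = 0.0064). With 1 library left out at a time its log2 fold change lay between 0.34 and 0.62.

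Igfbp7 encodes a secreted protein of the family that binds IGFs weakly and is abundant around blood vessels. It measured 18.8 and 18.97 CPM in the knockout libraries, against 33.4 and 30.3 CPM in the control libraries. Here the order was the opposite of that of Igfbp4, with both knockout libraries below both controls and the knockout libraries almost equal. The mean was 18.9 ± 0.12 CPM in knockout libraries and 31.8 ± 2.17 CPM in control libraries, 59.3% of the control level, with a log2 fold change of −0.74 (SE 0.12, 95% confidence interval −1.01 to −0.46). limma gave an adjusted p of 0.113 and edgeR, run on the recovered reads, 0.112, neither past 0.05, while DESeq2 gave 0.0144. Igfbp7 shares 85 exonic bases, 7.03% of its exons, with Polr2b on the opposite strand, and whether the counting used strand is not stated in the labels. Polr2b, a subunit of RNA polymerase II, was at 141 and 132 CPM in the knockout libraries and 127 and 119 CPM in the control libraries. The part of the shared bases in the level of Igfbp7 was not tested.

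Igfbp5, whose product binds IGFs and bone mineral and is also cut by PAPPA, differed little. It measured 29.2 and 28.5 CPM in the knockout libraries, against 30.7 and 31.4 CPM in the control libraries. The groups did not overlap, but the counting intervals of all 4 libraries did, and the log2 fold change was −0.10 (95% confidence interval −0.35 to 0.15, limma adjusted p = 0.9997).

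Taken as a ratio within each library, Igfbp4 reads exceeded Pappa reads 8.87-fold and 7.83-fold in the knockout libraries, against 2.04-fold and 2.22-fold in the control libraries. For Igfbp5 the ratio to Pappa was 4.06 and 3.95 in the knockout libraries and 1.60 and 1.47 in the control libraries. The transcripts of both substrates were therefore more abundant relative to the protease transcript in each knockout library than in each control. This ratio holds Pappa, which was chosen for its difference, and it is a ratio of reads that is not corrected for length.

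**Figure D1:**
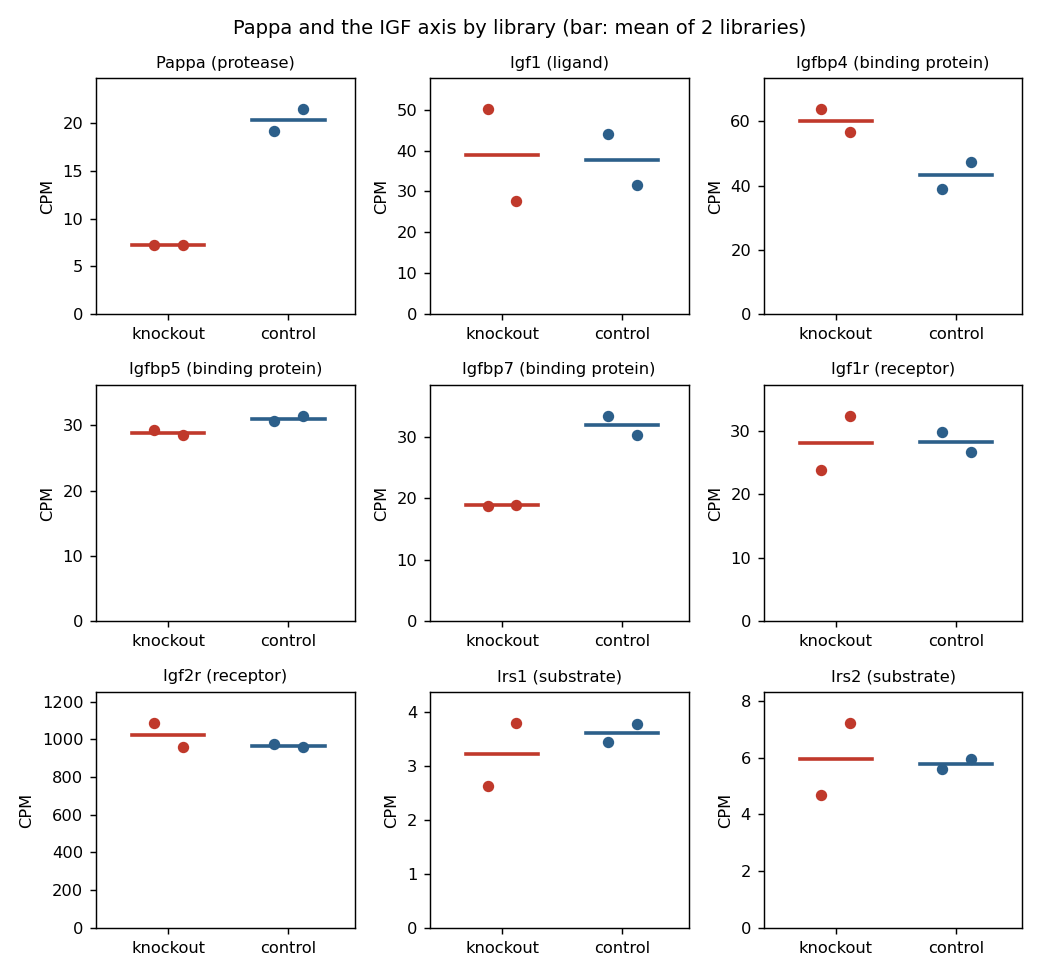
Level in CPM of Pappa and the other 8 genes in each library, with each point 1 library and each bar the mean of 2, knockout left and control right, on axes that start at 0. Pappa and Igfbp7 lie lower and Igfbp4 higher in both knockout libraries, while Igf1, Igf1r, Igf2r, Irs1 and Irs2 overlap between genotypes.

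The receptor genes gave overlapping levels. Igf1r, the tyrosine kinase receptor for IGFs, measured 23.8 and 32.3 CPM in the knockout libraries and 29.7 and 26.6 CPM in the control libraries, with a log2 fold change of −0.02 (95% confidence interval −0.40 to 0.36). The knockout libraries enclosed both controls. Igf2r, the mannose 6-phosphate receptor that carries lysosomal enzymes and clears IGF2, measured 1088 and 962 CPM in the knockout libraries and 973 and 959 CPM in the control libraries. Its log2 fold change was 0.08 (95% confidence interval −0.18 to 0.34), the narrowest bound among the receptors and substrates. The antisense gene Airn runs through Igf2r on the other strand without sharing exonic bases, and was at 3.50 and 2.99 CPM in the knockout libraries and 6.17 and 4.48 CPM in the control libraries.

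The substrate genes were low and variable. Irs1 measured 2.64 and 3.81 CPM in the knockout libraries and 3.44 and 3.78 CPM in the control libraries, from 40 to 70 reads. Gm9747, on the opposite strand, covers 30.9% of the exonic bases of Irs1, so reads there cannot be assigned to 1 gene without strand. Irs2, which FOXO factors are known to induce when insulin signalling is low, measured 4.69 and 7.23 CPM in the knockout libraries and 5.59 and 5.95 CPM in the control libraries. Their log2 fold changes were −0.16 (95% confidence interval −0.71 to 0.39) and 0.02 (−0.52 to 0.55), which are the widest intervals after that of Igf1. Igf1r, Igf2r, Irs1 and Irs2 each had a limma adjusted p of 0.9997.

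Of the 8 genes other than Pappa, limma called 0 at an adjusted p under 0.05, with Igfbp4 and Igfbp7 at an unadjusted p under 0.05, and edgeR called 0. In limma 0.161% of the 11781 tested genes were called in either direction and 0.119% as lower, and in edgeR 0.161%. Pappa was among those called genes, and was chosen on this comparison. DESeq2 called 1 of the 8, Igfbp7, as lower, against 0.535% of all tested genes in either direction and 0.467% as lower. In 3 of the 9 both knockout libraries were below both controls, against 15.4% of all tested genes, and in 1 both were above, against 16.5%. Nothing is read from these shares, because Pappa was chosen on this comparison. The median log2 fold change of the 9 was −0.02, and that of all tested genes was 0.002.

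**Figure D2:**
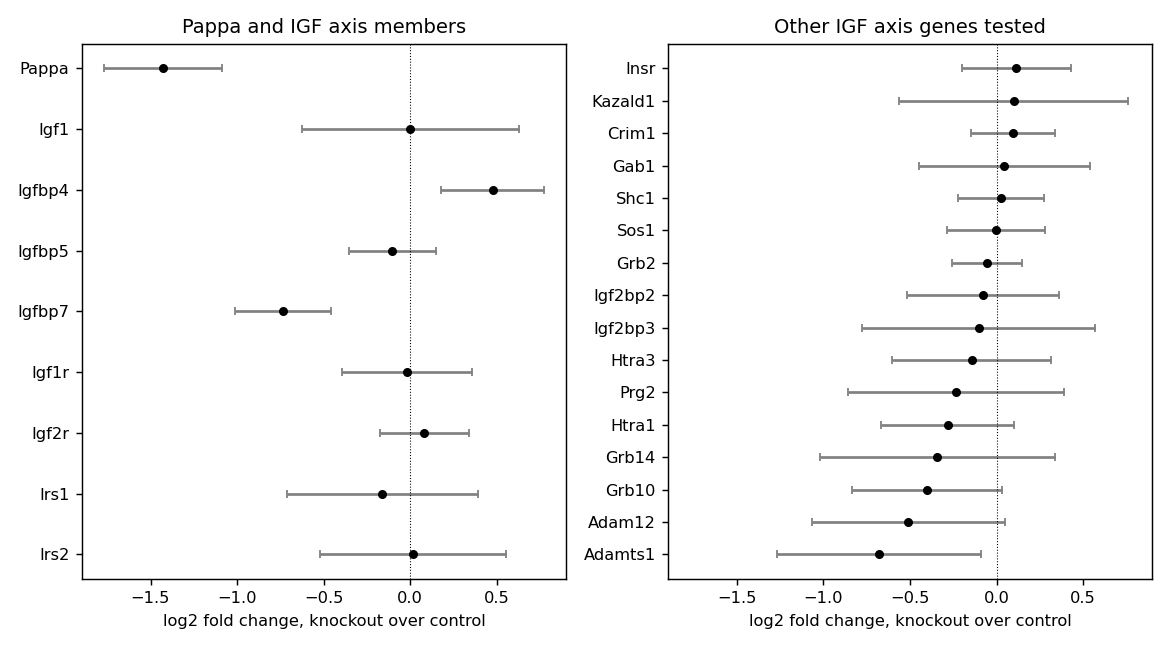
Log2 fold change on the log2(CPM + 0.5) scale, knockout over control, with the 95% confidence interval from limma as bars. The 9 genes described are on the left and the 16 other IGF axis genes tested on the right; Pappa at −1.43 and Igfbp7 at −0.74 lie farthest to the left of the members.

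Levels were compared between genes per kilobase of exon, since CPM favours long transcripts. On that scale Igf2r was highest in each library, at 117 and 103 CPM per kb in the knockout libraries and 105 and 103 CPM per kb in the control libraries. Igfbp7 was second, at 15.6 and 15.7 in the knockout libraries and 27.6 and 25.1 in the control libraries, and Igfbp4 came next, at 14.5 and 12.8 in the knockout libraries and 8.84 and 10.8 in the control libraries. The gap between Igfbp7 and Igfbp4 was therefore small in the knockout libraries, where it turned round in knockout 1 when the longest transcript replaced the union of exons as the length. Igfbp5, at 4.75 to 5.23 CPM per kb over the 4 libraries, and Igf1, at 2.80 to 5.06, could not be ordered beyond their spread. Pappa and Igf1r stood close together in the control libraries, at 1.74 and 1.94 CPM per kb for Pappa and 1.77 and 1.58 for Igf1r. With the longest transcript as length, Igf1r was at 2.61 and 2.33 there, above Pappa, whose values did not change. In the knockout libraries Pappa was at 0.652 and 0.656 CPM per kb, below Igf1r at 1.42 and 1.93 and below Irs2 at 0.741 and 1.14. In knockout 1, with 109 reads of Pappa and 71 of Irs2, Pappa and Irs2 could not be ordered beyond counting error. Irs1 was lowest in each library, at 0.289 to 0.416 CPM per kb.

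**Figure D3:**
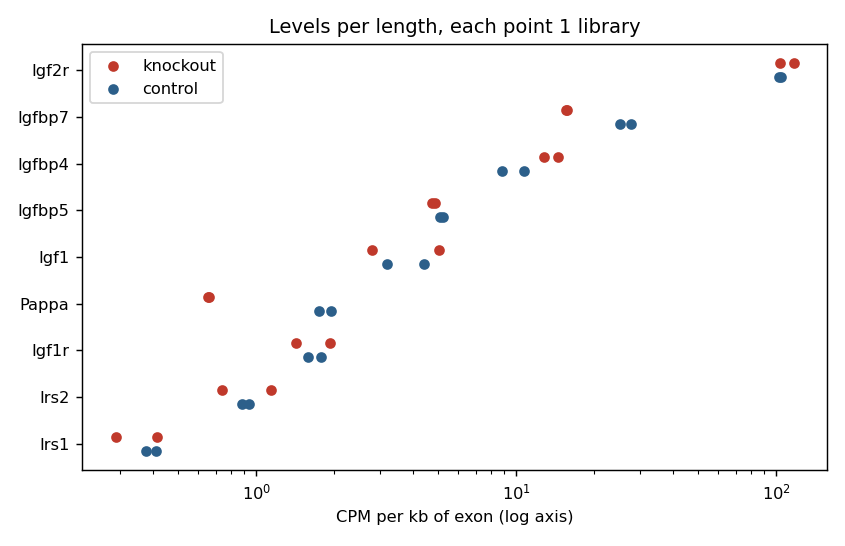
CPM per kilobase of exon on a log axis for the 9 genes, each point 1 library, knockout above control within each gene. Pappa in the knockout libraries lies at 0.652 and 0.656, left of Irs2, whereas in the control libraries it lies near Igf1r.

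The genes whose profile over the 4 libraries was nearest to that of Pappa were found among 9435 other tested genes with a mean of 5 CPM or more, by the Euclidean distance between log2(CPM + 0.5) values after subtracting the mean of each gene. The nearest was Ccdc28b, a coiled-coil gene, at a distance of 0.157, with 6.80 and 6.09 CPM in the knockout libraries and 15.7 and 18.1 CPM in the control libraries. Next were Timp3, an inhibitor of metalloproteinases, at 0.171, and Inhba, the activin A subunit, at 0.290. Timp3 measured 38.8 and 33.4 CPM in the knockout libraries, against 88.6 and 97.7 CPM in the control libraries. The collagen gene Col8a1 and the coiled-coil gene Ccdc85c followed at 0.365 and 0.367. A profile over 4 libraries of 2 genotypes mainly records the size of the genotype difference, and a gene lower by a like amount will be near Pappa whatever it does. Of the other members with a mean of 5 CPM or more, Igfbp7 was nearest at 0.723, the 43rd of the 9435, and Igfbp4 farthest at 1.91, the 9363rd.

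**Figure D4:**
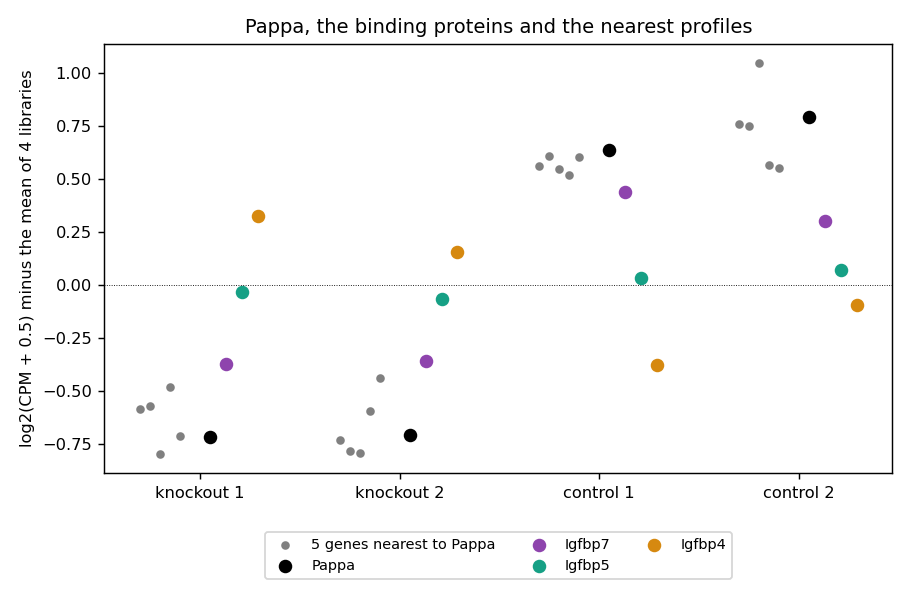
Each gene's log2(CPM + 0.5) in a library minus its mean over the 4 libraries, for Pappa, the 3 binding protein genes and the 5 named genes nearest to Pappa. Pappa, its neighbours and Igfbp7 are below 0 in both knockout libraries, Igfbp4 is above 0 there, and Igfbp5 stays near 0 throughout.

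Stromal cells and osteoblasts are known producers of PAPPA and of the binding proteins, and their summed marker level was lower in both knockout libraries than in both controls. The summed level of the 27 markers present was 2056 ± 207 CPM in knockout libraries and 3220 ± 424 CPM in control libraries (SD, n = 2 each), 63.9% of the control level, and each of the 27 passed the filter. Of them, 24 had a negative log2 fold change and 3 a positive one, Alpl, Cxcl12 and Lepr, with a median of −0.54. In 18 of the 27 both knockout libraries were below both controls, against 15.4% of all tested genes, and in 0 both were above. limma called 1 lower, Fbn1, and 0 higher, against 0.119% of all tested genes called lower, and 16 were lower at an unadjusted p under 0.05, where 3.55% of all tested genes were. DESeq2 called 11, all lower, against 0.467%. These shares are a description only, since the list was chosen with earlier results of these data known. Other markers overlapped between genotypes, among them Pdgfra and Dcn, with log2 fold changes of −0.005 and −0.14. Cxcl12 was at 43.9 and 27.4 CPM in the knockout libraries and 34.6 and 32.97 CPM in the control libraries, and Col6a1 at 173 and 90.7 CPM in the knockout libraries and 145 and 148 CPM in the control libraries. None of the 27 was at 0, and Thy1, Bglap and Mfap5 were not analysed here. The 4 most abundant were Col1a2, Col1a1, Col3a1 and Sparc, genes of fibrillar collagen and a collagen-binding glycoprotein, and Col1a1 measured 386 and 365 CPM in the knockout libraries and 561 and 758 CPM in the control libraries. These matrix genes weigh most in the sum. In a bulk library fewer cells of a type and less RNA per cell, of all markers or of some only, cannot be told apart.

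Each member was also expressed as a percentage of that sum. Because the sum itself was lower in the knockout libraries, a gene at an equal level in both genotypes has a higher percentage there, and the knockout over control ratio of Igf1, Igf1r, Igf2r, Irs1 and Irs2 ran between 1.42, for Irs1, and 1.65, for Igf2r. Pappa was 0.327% and 0.379% of the stromal marker sum in the knockout libraries and 0.656% and 0.609% in the control libraries, a description of a gene chosen for its low level in knockouts. Igfbp7 was 0.854% and 0.993% of the sum in the knockout libraries and 1.14% and 0.861% in the control libraries, and these overlapped. Igfbp5 was 1.33% and 1.49% in the knockout libraries and 1.05% and 0.893% in the control libraries, a ratio of 1.45 that lies within those of the genes near equal level. Igfbp4 was 2.90% and 2.97% in the knockout libraries and 1.34% and 1.35% in the control libraries, a ratio of 2.18. The part of stromal cells in the levels of these genes was not tested. Of 12 endothelial markers, 5 were present and summed to 11.2 and 9.84 CPM in the knockout libraries and 9.61 and 12.1 CPM in the control libraries, and 7, among them Pecam1 and Emcn, were not analysed here. Of 21 markers of other blood cells, 8 were present, and they summed to 37.6 and 32.4 CPM in the knockout libraries and 27.9 and 48.0 CPM in the control libraries.

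**Figure D5:**
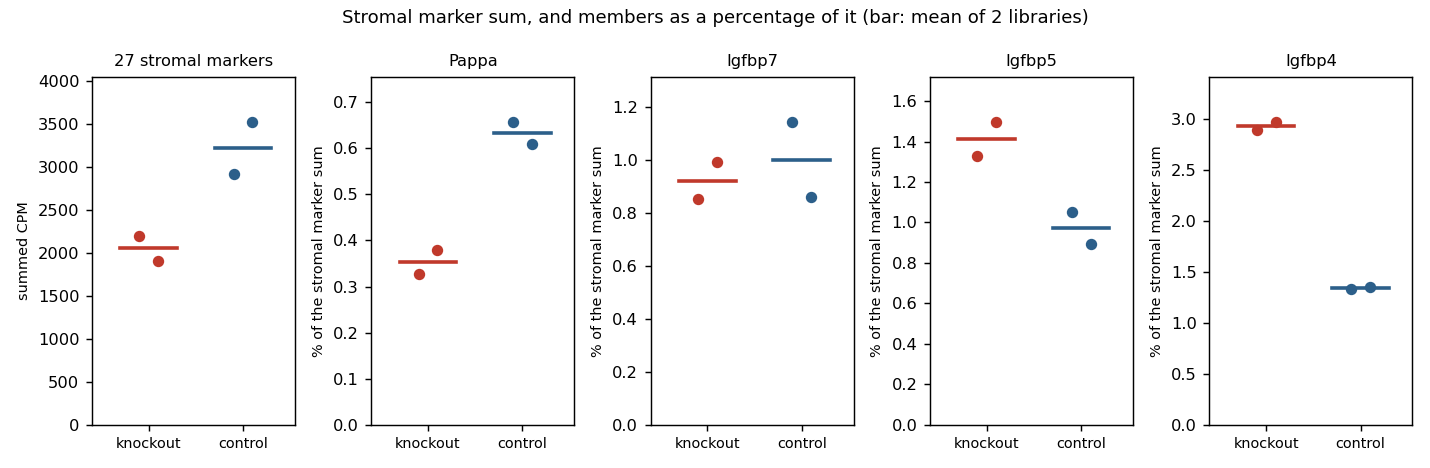
Summed CPM of the 27 stromal, fibroblast and osteoblast markers (left), and Pappa, Igfbp7, Igfbp5 and Igfbp4 as a percentage of that sum, each point 1 library and each bar the mean of 2. Relative to this sum, which is itself lower in the knockout libraries, Pappa is lower and Igfbp5 and Igfbp4 are higher in both knockout libraries, and Igfbp7 overlaps.

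Of 32 further genes of the IGF axis, 16 were present and tested, and neither limma, edgeR nor DESeq2 called any of them (0 of 16). Over all tested genes limma and edgeR each called 0.161% and DESeq2 0.535%, so nothing is read from a count of 0. An unadjusted limma p under 0.05, which 4.9% of all tested genes had, was reached by 1, Adamts1. This secreted metalloproteinase was at 3.56 and 4.57 CPM in the knockout libraries and 5.39 and 8.47 CPM in the control libraries (log2 fold change −0.68, limma adjusted p = 0.946). Adam12, another metalloproteinase that can cut IGF binding proteins, was at 1.72 and 2.28 CPM in the knockout libraries and 2.99 and 3.08 CPM in the control libraries. The serine protease Htra1, which also cuts binding proteins, was at 8.38 and 7.39 CPM in the knockout libraries and 9.22 and 10.1 CPM in the control libraries. Grb10, an adaptor that restrains the insulin and IGF receptors, was at 18.7 and 15.8 CPM in the knockout libraries and 19.2 and 27.2 CPM in the control libraries. Adam12, Htra1 and Grb10 each had a limma adjusted p of 0.9997. DESeq2 gave no adjusted p for some of the 16, Adam12 among them, and so could not call these. Over the 16 the median log2 fold change was −0.09, with 11 negative and 5 positive. In 5 of the 16 both knockout libraries were below both controls, against 15.4% of all tested genes. In 1 both were above, against 16.5%. Nothing is read from these shares, because the list was chosen with earlier results of these data known. The insulin receptor gene Insr belonged to the 16. No value of Igf2, Ins1, Ins2, Igfbp1, Igfbp2, Igfbp3, Igfbp6, Pappa2 or the PAPPA inhibitors Stc1 and Stc2 was analysed here.

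Below the receptors, 37 of 38 genes of the PI3-kinase, AKT and mTOR pathway were tested, and 0 of them were called by any of the 3 tools. The shares called over all tested genes were 0.161% in limma and in edgeR and 0.535% in DESeq2, so nothing is read from this 0. DESeq2 gave no adjusted p for some of the 37. The unadjusted limma p was under 0.05 for 1 of the 37, Phlpp1, against 4.9% of all tested genes. This phosphatase, which inactivates AKT, was at 52.8 and 51.6 CPM in the knockout libraries and 44.9 and 40.04 CPM in the control libraries (log2 fold change 0.30, limma adjusted p = 0.931). Tsc2, which restrains mTOR, was at 62.3 and 70.5 CPM in the knockout libraries and 58.97 and 55.4 CPM in the control libraries. Eif4ebp1, a translation repressor that mTOR inactivates, was at 104 and 105 CPM in the knockout libraries and 110 and 133 CPM in the control libraries, and the PI3-kinase subunit gene Pik3r2 at 49.4 and 52.5 CPM in the knockout libraries and 44.1 and 46.97 CPM in the control libraries. Over the 37 the median log2 fold change was 0.03, with 24 positive and 13 negative. In 2 of the 37 both knockout libraries were below both controls, against 15.4% of all tested genes. In 7 both were above, against 16.5%, and nothing is read from these shares.

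Of 20 genes known to be induced by FOXO factors, which AKT inhibits, 17 were tested, and the 3 tools called 0. Here too the shares over all tested genes were 0.161% in limma and in edgeR and 0.535% in DESeq2. Not all of the 17 had an adjusted p in DESeq2. Only Txnip had an unadjusted limma p under 0.05, 1 gene of the 17, against 4.9% of all tested genes. This inhibitor of thioredoxin and of glucose uptake was at 377 and 358 CPM in the knockout libraries and 459 and 428 CPM in the control libraries (log2 fold change −0.27, limma adjusted p = 0.892). Pdk4, a kinase that holds back pyruvate oxidation, was at 11.9 and 6.20 CPM in the knockout libraries and 13.4 and 12.5 CPM in the control libraries. Without knockout 1, which leaves knockout 2 as the only knockout library, the log2 fold change of Pdk4 was −1.01. The pro-apoptotic gene Bcl2l11 was at 46.3 and 45.99 CPM in the knockout libraries and 40.6 and 39.8 CPM in the control libraries, and the stress gene Sesn1 at 36.96 and 32.2 CPM in the knockout libraries and 31.7 and 28.6 CPM in the control libraries. Over the 17 the median was −0.03 on the same scale, with 7 positive and 10 negative. In 2 of the 17 both knockout libraries were below both controls, against 15.4% of all tested genes. In 3 both were above, against 16.5%, and nothing is read from these shares. These are transcript levels, and neither the activity of the receptors or kinases nor the cleavage of binding proteins was measured.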

How the data were processed

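Poly(A) RNA of 4 libraries, 2 knockout and 2 control, was used. Per the submitters' processing notes, the tools were STAR, Subread's featureCounts and edgeR on mm10 (GRCm38), with no versions given. The authors deposited a normalised signal per gene and library, in which 100% of values lay within 0.001 reads of a whole multiple of the smallest positive value of the column. CPM recomputed from these recovered reads with TMM factors equalled the deposited values to within 4.9e-11.

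limma with an intensity trend compared log2(CPM + 0.5) between genotypes, with no other term, in 11781 genes that reached 1 CPM in 2 or more libraries. Tests were 2-sided with Benjamini-Hochberg adjustment over these genes, and the pseudocount makes fold changes of low genes too small. These steps were tested on simulated reads. edgeR's quasi-likelihood test and DESeq2 ran on the recovered reads of the same genes. An exact permutation test of 2 libraries against 2 cannot go below p = 0.333. The floor of 3 reads was 0.163 to 0.21 CPM, for counting error only. Each pair of libraries differed beyond sampling noise by chi-square. The chi-square per degree of freedom was 22.5 between the 2 knockout libraries and 11.2 between the 2 controls. Between a knockout and a control library it was 12.0 to 21.1, so the knockout libraries were the most unlike pair.

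The members and lists were chosen with earlier results of these data known. Named were Piezo1, the 9 members, genes of 3 pathway lists that passed or had the 4 smallest p, the 4 most abundant stromal markers, and the 6 genes nearest to Pappa, of which 1 is not reported here. Fbn1, Alpl, Cxcl12, Lepr, Col6a1, Pdgfra, Dcn, Airn, Polr2b, Gm9747, Insr and genes not analysed here are named outside this rule, after their values were seen. Lengths and positions came from GENCODE M21, which held 12699 of the 12799 symbols. Software was Python 3.11.15 (pandas 2.3.3, SciPy 1.17.1, NumPy 2.4.6, matplotlib 3.10.9) and R 4.3.3 (DESeq2 1.42.0, edgeR 4.0.16, limma 3.58.1).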

Additional observations from a re-analysis of the deposited data

How the results depend on the processing

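The number of the 9 genes past the threshold was 1, Pappa, which was chosen for this, and is no sign of stability. It was 0 without control 1, without control 2 and without an intensity trend in the variance, 0 to 1 with 1 library left out, and 2 with DESeq2 and with the replicate number as a block, where Igfbp7 also passed (adjusted p = 0.0144 and 0.0147). The log2 fold change of Pappa was −1.51 to −1.35 over the 15 alternatives. Igfbp7 kept a negative sign, and Igfbp4 a positive one, under all 15. Over all genes, 19 were called, 7 to 76 with 1 library left out, 4 without the trend, 63 with DESeq2 and 89 with the replicate block. The replicate numbers were not taken to pair the libraries, since deviations of same-numbered libraries had a correlation of −0.002 across genes. Of the FOXO targets 0 to 1 passed with 1 library left out, and of the other IGF axis and PI3-kinase genes 0 passed under each alternative. Signs turned for genes near 0, and plain library sizes shifted the median of all tested genes to −0.02. Igf1 was at −0.023 with plain library sizes, −0.0095 with upper-quartile scaling, and −0.42 to 0.42 with 1 library left out. Irs2 was at −0.0073 with plain library sizes and −0.27 to 0.30 with 1 library left out, Igf1r at −0.24 to 0.20, Igf2r at −0.0062 to 0.17 and Irs1 at −0.39 to 0.068. The longest transcript as length changed the mean level per kb of Igf1, Igfbp4 and Igf1r to 5.44, 13.5 and 2.47 CPM. Irs1 had the fewest reads of the 9, 40 to 70 a library.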
